A study of Arabidopsis thaliana with 28 samples.

Results

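The comparison set the PYL5 CA line against the aba2-1 mutant, both given mock solution. PYL5 CA is an Arabidopsis thaliana line that expresses a form of the abscisic acid (ABA) receptor PYL5. In work on these receptors CA is the usual short form of constitutively active. The 6 samples, of 28 in the series, were chosen by their labels alone, 3 of PYL5 CA and 3 of aba2-1 mock. Per the labels' protocols, all seedlings were raised on MS plates for 7 days and then moved to liquid MS for 3 h, which held no ABA for these 6 samples. Another label gives the age as 10 days after germination. Every label names the T3 generation. RNA came from the whole seedling, so fewer cells of a type and less RNA per cell cannot be told apart. The genetic background, the promoter and the number of independent transformants behind PYL5 CA are not given in the sources used here. Other groups used beside these were Col-0, the wild type, under mock (2 samples), 10 nM ABA (2) or 50 nM ABA (3), aba2-1 under 10 nM or 50 nM ABA (3 each), and the mock-treated lines PYL4 CA, PYL6 CA and PYR1 CA (3 each). Whether replicates are separate cultures is not in the labels, so the p-values speak to the variation among the sampled libraries alone, and part of it may be technical.

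ABA is the hormone that plants make when water is short. The receptors of the PYR/PYL family bind it, and the bound receptor holds back clade A PP2C phosphatases. The SnRK2 kinases that these phosphatases otherwise keep inactive are then free to act, and they phosphorylate ion channels of guard cells and transcription factors such as ABI5 and the ABFs. Genes for dehydrins and other stress proteins are the classic transcriptional readout. A constitutively active receptor is a form that inhibits the phosphatases without hormone. ABA2 encodes a dehydrogenase of ABA biosynthesis, and the aba2-1 mutant is low in ABA.

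The rows that carry the receptor's name were high in PYL5 CA, which checks the labels. All values are read counts after division by 1 size factor per library, called normalised reads here. The gene PYL5 (AT5G05440, chromosome 5, 1608988 to 1610527, RefSeq TAIR10.1) had 7271, 3286 and 5062 normalised reads in PYL5 CA replicates 1, 2 and 3, and 2389, 2655 and 2343 in aba2-1 mock. Every PYL5 CA library lay above every aba2-1 mock library, and replicate 2 was the lowest of the PYL5 CA libraries. A further row of the table, PYL5-CA, has no locus identifier, and the sources used here do not say what sequence it stands for. It held 12438.5, 8874 and 9091 normalised reads in PYL5 CA, against 203, 798 and 724 in aba2-1 mock. Reads of a gene and of a near-identical row can be shared out between them, so the values of PYL5 and PYL5-CA are uncertain one by one. Their sum came to 15341 ± 3912 (SD, n = 3) in PYL5 CA and 3037 ± 431 (SD, n = 3) in aba2-1 mock, and the libraries did not overlap. A two-sided exact permutation test of the sum gave p = 0.1, the smallest that 3 libraries against 3 can give.

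The row MCCA-NOS, also without a locus, held 19814, 11294 and 10029 normalised reads in PYL5 CA and 0 in each aba2-1 mock library. It was also high in the other lines expressing a CA receptor, at 8531 to 26804 normalised reads per library of PYL4 CA, PYL6 CA and PYR1 CA. In seedlings of the aba2-1 mutant given 50 nM ABA the row held 139.9, 34.1 and 5.32 normalised reads, far under the CA lines but not at 0. Rows named for other receptors carried fewer reads in PYL5 CA. PYR1-CA held 1157, 1926 and 2105 normalised reads in PYL5 CA against 731, 1202 and 1094 in aba2-1 mock, and the groups overlapped. PYL4-CA held 20.6, 16.0 and 305 normalised reads, with replicate 3 standing apart, against 2.08, 3.62 and 21.6 in aba2-1 mock. PYL6-CA held 158, 499 and 67.5 normalised reads in PYL5 CA and 325, 527 and 479 in aba2-1 mock, again with overlap. In the PYR1 CA line itself PYR1-CA held 555, 324 and 473 normalised reads, under every PYL5 CA library, so that row does not follow its name. PYL4-CA averaged 6196 in PYL4 CA and PYL6-CA averaged 5450 in PYL6 CA.

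**Figure D1:**
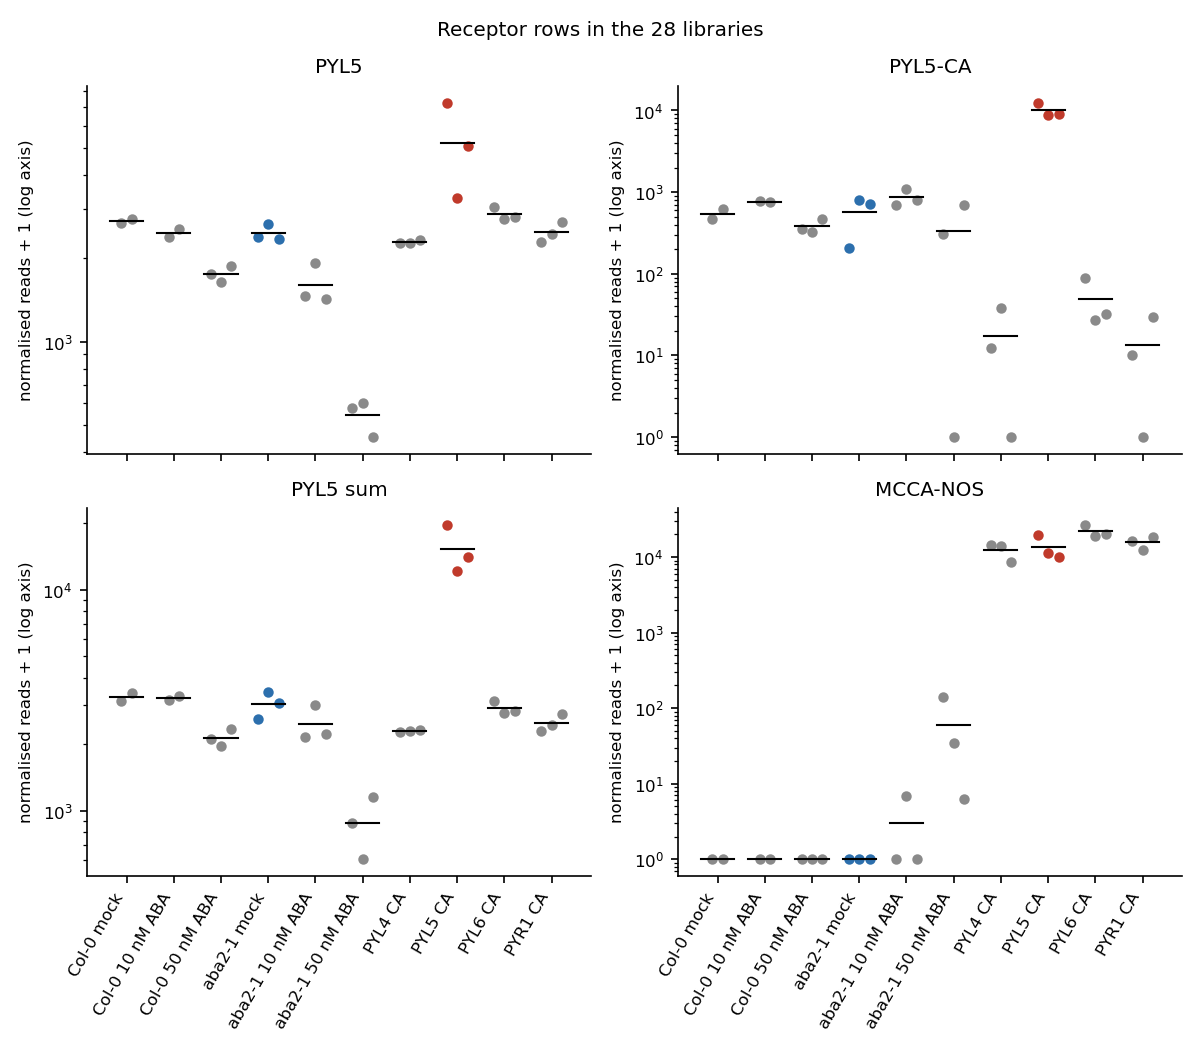
Normalised reads + 1 on a log axis for PYL5, PYL5-CA, their sum and MCCA-NOS in the 28 libraries. Each point is 1 library, bars are group means, PYL5 CA is red and aba2-1 mock blue. The PYL5 sum of PYL5 CA averaged 15341 against 3037 in aba2-1 mock, and MCCA-NOS was at 0 in all 3 aba2-1 mock libraries.

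The 3 PYL5 CA libraries lay far from each other. Taken over loci, the median SD of log2 values was 0.274 among the PYL5 CA libraries and 0.125 among those of aba2-1 mock. A wide spread was not particular to PYL5 CA: the aba2-1 libraries given 50 nM ABA had a median SD of 0.296. The values of that group given below carry this spread. Replicate 2 had a tilt with transcript length that the other libraries did not have to that size. The shortest 20% of transcripts (up to 1174 bases) had a median log2 difference of 0.30 from the aba2-1 mock mean in that library, and the longest 20% (from 2556 bases) one of -0.42. The 25 libraries outside PYL5 CA ranged from -0.16 to 0.07 and from -0.08 to 0.07 for the same short and long transcripts, and PYL5 CA replicates 1 and 3 lay at -0.08 and -0.17 for the short ones. Mitochondrial rows took 0.982% of the reads of replicate 2, against 0.350% and 0.445% in replicates 1 and 3. All 3 values lay within the range of the 25 libraries outside PYL5 CA, 0.153% to 1.095%. Replicate 3 had the most loci over 2-fold away from the aba2-1 mock mean, 961, against 92 in replicate 1 and 558 in replicate 2. Totals were 24.0, 20.5 and 20.7 M reads in PYL5 CA and 16.6 to 17.3 M reads in aba2-1 mock.

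**Figure D2:**
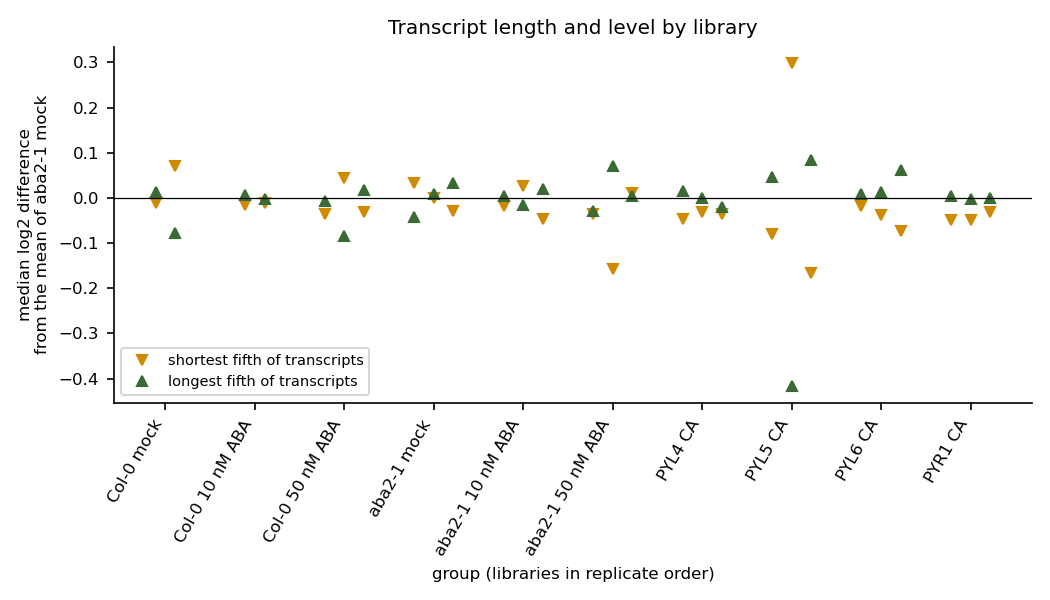
Median log2 difference from the mean of aba2-1 mock for the shortest and the longest 20% of transcripts, 1 pair of points per library, by group. PYL5 CA replicate 2 stands apart at 0.30 and -0.42.

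Few loci passed the test between PYL5 CA and aba2-1 mock. Limma on log2(value + 1) of the 6 libraries, with Benjamini-Hochberg adjustment over 20332 loci, called 3 loci at an adjusted p under 0.05, or 0.0148%. Of these 1 was higher (0.00492%) and 2 were lower (0.00984%) in PYL5 CA. At an unadjusted p under 0.05 there were 1799 loci. Loci whose libraries did not overlap numbered 1829 with PYL5 CA higher (9%) and 1631 with PYL5 CA lower (8.02%). Because 1 was added to each value before taking logs, the log2 differences below are too small for weakly expressed genes.

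The locus that rose was AT2G01422, which RefSeq annotates as a noncoding RNA (chromosome 2, 183940 to 184734, TAIR10.1). It had 74.7, 582 and 109.6 normalised reads in PYL5 CA and 0 in all 3 aba2-1 mock libraries, so the groups did not overlap. Set against a floor of 3 reads per library, its mean was at least 75.6-fold higher in PYL5 CA (adjusted p = 0.0105, limma with Benjamini-Hochberg adjustment). The libraries of Col-0 mock held 5.80 and 2.83 normalised reads of it. PYL6 CA held 0.708, 0 and 0, and PYL4 CA held 0, 1.02 and 0, so PYL5 CA stood above both lines. The neighbouring gene PIN4, an auxin efflux carrier, did not separate the groups: it held 2176, 1382 and 2102 normalised reads in PYL5 CA and 1822, 1984 and 2056 in aba2-1 mock. Without replicate 3, the library doubted at the outset, the adjusted p of AT2G01422 was 0.054. Without replicate 1 it was 0.0546, and without aba2-1 mock replicate 1 or 2 it was 0.0988 and 0.0541. It was 0.0762 with a pseudocount of 5, 0.535 with edgeR and 0.126 with the spread weighted by group. Without replicate 2, which held the most reads, the lower bound was 27.3-fold, and the adjusted p was 0.00172.

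AT4G15390 fell in PYL5 CA. RefSeq annotates it as an acyltransferase of the HXXXD type (chromosome 4, 8792707 to 8794442, TAIR10.1). Its normalised reads were 285, 196 and 229 in PYL5 CA and 726, 720.5 and 672 in aba2-1 mock, with no overlap. Its level fell by 1.59 on the log2 scale (SE 0.17), which put aba2-1 mock 3.01-fold above PYL5 CA (adjusted p = 0.0318, limma). Col-0 mock held 319.8 and 399.8 normalised reads, between PYL5 CA and aba2-1 mock, and aba2-1 given 50 nM ABA held 324, 247 and 271. The means were 361 in PYL4 CA, 381 in PYL6 CA and 498 in PYR1 CA. The adjusted p was 0.104 without PYL5 CA replicate 3 and 0.0689 without replicate 1. It was 0.265 to 0.336 with 1 aba2-1 mock library left out, 0.116 with edgeR and 0.126 with the spread weighted by group. Under other settings the call held, at 0.00677 without replicate 2, 0.00013 with all 28 libraries in 1 fit and 2.2e-10 with DESeq2.

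PIA1 (AT5G07840, chromosome 5, 2506656 to 2508373, TAIR10.1), an ankyrin repeat protein known as an interactor of phytochrome, was the second locus that fell. It was named after its values were seen. It was at 0 in the 3 PYL5 CA libraries and at 47.7, 173 and 176 normalised reads in aba2-1 mock. Its mean was at least 50.0-fold lower in PYL5 CA, against the floor of 3 reads per library (adjusted p = 0.00487, limma). It was at 0 in every library of PYL4 CA, PYL6 CA, PYR1 CA and aba2-1 given 50 nM ABA as well, and at 0 and 122 in the Col-0 mock libraries. The row with the next identifier, AT5G07842, held 380.5, 371 and 267 normalised reads in PYL5 CA and 369.5, 176 and 179 in aba2-1 mock. The sum of both rows was 339 ± 63.2 (SD, n = 3) in PYL5 CA and 374 ± 37.9 (SD, n = 3) in aba2-1 mock, with an exact two-sided permutation p of 0.6. How reads were shared out between these rows was not tested. PIA1 was the locus still called without PYL5 CA replicate 3 (adjusted p = 0.0242, limma), the 1 call left of that fit (0.00494%). It was lost without PYL5 CA replicate 1 (0.0546), without aba2-1 mock replicate 2 (0.0541), with edgeR (0.217) and with the spread weighted by group (0.481).

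None of the ABA-induced genes passed the test, and 27 of the 31 tested had a positive log2 difference, PYL5 CA minus aba2-1 mock. The list held 37 genes, of which 31 were tested and 6 had too few reads. Limma called 0 of the 31 (0.0148% of all loci were called). Libraries did not overlap at 12 of the 31, all with PYL5 CA higher, beside 9% of all loci. The median log2 difference was 0.49, against -0.01 over all loci tested. By library the list's median was 0.44, 0.66 and 0.40 in PYL5 CA replicates 1, 2 and 3. Without replicate 3 the list's median was 0.60, and without replicate 2, the library with the length tilt, it was 0.46. The part that the tilt has in these medians was not tested. All of these libraries were set against the same aba2-1 mock mean. The listed genes were measured in the same 6 libraries and are not 31 separate observations. The list was chosen with earlier results of these data known.

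KIN1, a small cold- and ABA-inducible protein, had 222, 378 and 248 normalised reads in PYL5 CA and 103, 103 and 116 in aba2-1 mock. The groups did not overlap, and replicate 2 was the highest library. The log2 difference was 1.36 (SE 0.22), with an adjusted p of 0.267 (limma, Benjamini-Hochberg). It was under 0.05 with all 28 libraries in 1 fit (0.0175) and without PYL5 CA replicate 2 (0.0444). Settings that did not call KIN1 were edgeR, the spread weighted by group, and the fits without PYL5 CA replicate 1 or 3. The same settings did not call ERD10, LTI30, DTX50, KCS2, AT1G05250, SUS4, CHS or the MYB genes given below. KIN1 was higher still in Col-0 mock, at 497 and 654 normalised reads, and in aba2-1 given 50 nM ABA, at 1251, 962 and 1456.

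The dehydrins, hydrophilic proteins that accumulate in drying and cold tissue, were mixed: ERD10, COR47 and LTI30 separated the groups and ERD14 did not. ERD10 had 6486, 7082 and 7639.5 normalised reads in PYL5 CA and 3280.0, 3977 and 3449.7 in aba2-1 mock, without overlap. Its log2 difference was 0.99 (SE 0.16) with an adjusted p of 0.267 (limma). The adjusted p was 0.00521 in the fit of all 28 libraries and 0.0463 without replicate 2. Here PYL5 CA also stood above both Col-0 mock libraries, at 4624 and 5061 normalised reads. COR47, the neighbouring dehydrin gene, had 17256, 20765 and 21649 normalised reads in PYL5 CA and 9183, 11848 and 9879 in aba2-1 mock. The lowest PYL5 CA library exceeded the highest aba2-1 mock library by a wide margin, and the log2 difference was 0.95 (SE 0.19, adjusted p = 0.468, limma). LTI30 had 3331, 4448 and 4162 normalised reads in PYL5 CA and 1815, 2427 and 2035 in aba2-1 mock. Its groups did not overlap either, with a log2 difference of 0.93 and an adjusted p of 0.468 (limma), or 0.0326 with all 28 libraries. ERD14, a further dehydrin, overlapped between the groups, with 7616, 9839 and 5955 normalised reads in PYL5 CA and 5789.9, 7704 and 6671 in aba2-1 mock.

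RAB18 and RD29B, the genes most often used to report ABA signalling, stayed low in PYL5 CA. RAB18 had 28.2, 32.0 and 39.5 normalised reads in PYL5 CA and 13.5, 18.1 and 17.0 in aba2-1 mock. Its groups did not overlap, but in aba2-1 given 50 nM ABA the same gene held 987, 1505 and 872. RAB18 held 69.9, 103 and 90.13 normalised reads in PYL4 CA, all above PYL5 CA (log2 difference PYL5 CA minus PYL4 CA -1.37, adjusted p = 0.112, limma). RD29B had 18.3, 43.0 and 16.7 normalised reads in PYL5 CA and 9.34, 7.24 and 4.54 in aba2-1 mock, and 252, 286 and 233 in aba2-1 given 50 nM ABA. Its relative RD29A was far more abundant, at 4659, 3257 and 4839.8 in PYL5 CA and 2909, 2440.2 and 1854 in aba2-1 mock. Neither RD29 gene overlapped between the groups, and neither passed the test (adjusted p = 0.53 for each, limma). AFP1, a negative regulator that binds ABI5, was the tightest of these genes, at 194, 208 and 203 in PYL5 CA and 140.1, 154 and 136 in aba2-1 mock. Not every member leaned upward: NAC055, LTP3, P5CS1 and RD26 had negative log2 differences of -0.64, -0.33, -0.11 and -0.13.

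**Figure D3:**
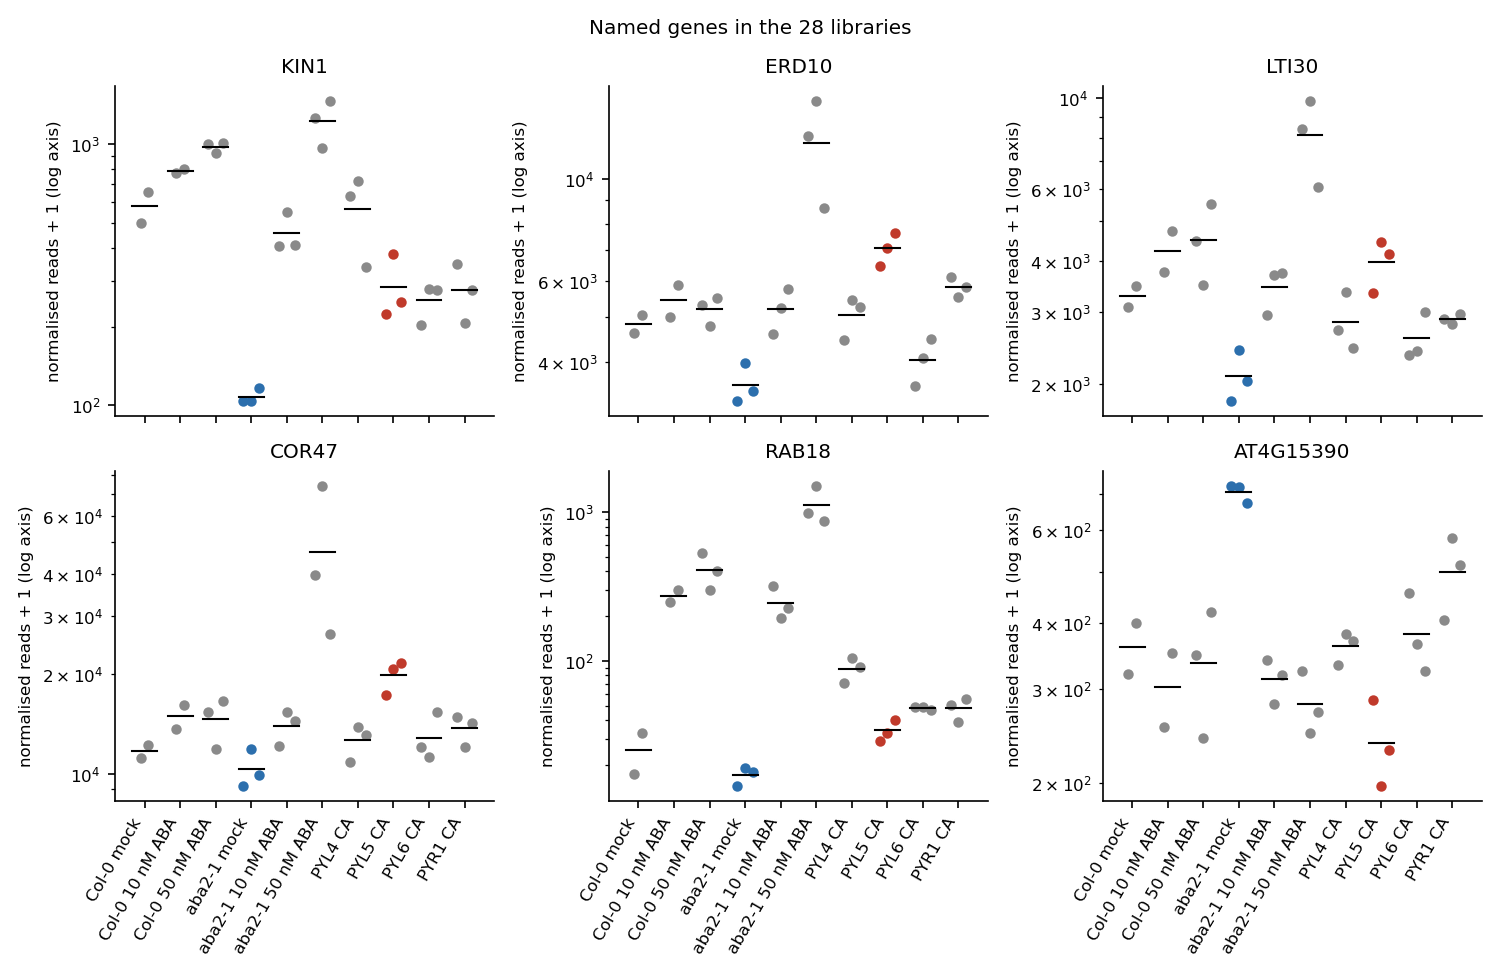
Normalised reads + 1 on a log axis for 5 ABA-induced genes and AT4G15390 in the 28 libraries. Each point is 1 library, bars are group means, PYL5 CA is red and aba2-1 mock blue. ERD10 in PYL5 CA (6486 to 7639.5) lies above aba2-1 mock (3280.0 to 3977), while RAB18 in PYL5 CA (28.2 to 39.5) lies far under aba2-1 with 50 nM ABA (872 to 1505).

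The sequences before KIN1, ERD10 and COR47 are shown for 3 of the ABA-induced genes whose libraries did not overlap between the groups, with ERD10 and COR47 as neighbouring dehydrin genes. Each is the 250 bases before the gene's start in RefSeq TAIR10.1, 5′ to 3′ on the gene's strand: chr5:5209467-5209716 on the plus strand for KIN1, chr1:7089607-7089856 on the minus strand for ERD10, and chr1:7086874-7087123 on the minus strand for COR47. Capitals mark the core of the ABA-responsive element, searched as ACGTG on both strands, which reads as CACGT where it lies on the other one. The dehydration-responsive core, CCGAC on either strand, was searched as well.
KIN1: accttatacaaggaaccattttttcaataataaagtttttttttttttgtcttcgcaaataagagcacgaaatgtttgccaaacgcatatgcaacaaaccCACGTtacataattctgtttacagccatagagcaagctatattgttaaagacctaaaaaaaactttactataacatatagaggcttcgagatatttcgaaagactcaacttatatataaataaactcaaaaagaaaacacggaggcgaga
ERD10: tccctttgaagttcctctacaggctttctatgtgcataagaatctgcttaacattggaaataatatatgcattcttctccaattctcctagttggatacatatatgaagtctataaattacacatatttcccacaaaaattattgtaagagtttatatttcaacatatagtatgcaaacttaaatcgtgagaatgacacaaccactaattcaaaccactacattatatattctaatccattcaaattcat
COR47: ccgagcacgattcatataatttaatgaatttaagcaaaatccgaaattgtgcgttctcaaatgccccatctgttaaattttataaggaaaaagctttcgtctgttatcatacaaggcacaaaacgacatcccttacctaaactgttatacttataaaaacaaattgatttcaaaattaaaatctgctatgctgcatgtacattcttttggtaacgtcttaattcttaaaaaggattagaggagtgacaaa
KIN1 held 1 match to the first motif, and neither ERD10 nor COR47 held a match to either motif in this window. Of the 27443 windows of the same length before protein-coding genes, 22.91% held the first motif and 11.97% the second. A match is a run of letters, not a tested binding site.

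Of the signalling chain from receptor to transcription factor, limma called 0 loci between PYL5 CA and aba2-1 mock, where 0.0148% of all loci were called. Among 9 tested PYR/PYL receptor genes the median log2 difference was 0.04, with 3 members higher and 1 lower without overlap, beside 9% and 8.02% of all loci. Besides PYL5, PYL1 had 531, 633 and 759 normalised reads in PYL5 CA and 447, 477 and 429.9 in aba2-1 mock, and PYL4 had 4752, 5586 and 5127 against 4188, 4129.8 and 4247. Both separated the groups without passing the test. PYR1 did not separate them, and its replicate 2 was the highest library, at 2671 normalised reads beside 1127 and 793. PYL6 held 708, 724 and 815 normalised reads in PYL5 CA and 835, 659 and 701 in aba2-1 mock.

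Of the clade A phosphatases, the partners that the receptors inhibit, 6 were tested and their median log2 difference was 0.06. Without overlap, 2 members were higher, beside 9% of all loci. ABI1 had 1536, 1406 and 1483 normalised reads in PYL5 CA and 1241, 1337 and 1374 in aba2-1 mock, a log2 difference of 0.16. HAI1, a phosphatase gene that ABA induces, was near the detection limit, at 10.7, 12.004 and 15.8 normalised reads against 3.11, 9.65 and 6.81. In aba2-1 given 50 nM ABA these genes held 2806, 2312 and 2782 (ABI1) and 107, 100.4 and 146 (HAI1) normalised reads. Among 15 SnRK2 kinases and ABA transcription factors the median log2 difference was 0.23, against -0.01 over all loci tested. Without overlap, 4 members were higher and 1 lower, beside 9% and 8.02% of all loci. ABI5, the bZIP factor of seedling arrest, had 75.5, 70.0 and 103 normalised reads in PYL5 CA and 43.6, 70.0 and 54.5 in aba2-1 mock, where the groups touched at 70.0. The guard-cell kinase gene OST1 had 278, 280.1 and 251 normalised reads against 243, 249.8 and 219.

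The 6 tested biosynthesis genes had a median log2 difference of -0.04, and 0 of them separated the groups, beside 9% of all loci with PYL5 CA higher and 8.02% with it lower. NCED3, whose product cleaves the carotenoid precursor under drought, had 67.9, 33.0 and 51.7 normalised reads in PYL5 CA and 22.8, 39.8 and 40.8 in aba2-1 mock. ABA2 itself had 191, 228 and 202 normalised reads in PYL5 CA and 208, 186 and 205 in aba2-1 mock, and the ranges coincided. Among the 12 tested genes of breakdown, conjugation and transport the median was 0.09. DTX50, an ABA exporter, separated the groups, at 607, 698 and 751 normalised reads in PYL5 CA and 436, 387 and 373 in aba2-1 mock. Its log2 difference was 0.78 (SE 0.15), with an adjusted p of 0.468 (limma) or 0.0175 with all 28 libraries. Neither edgeR nor the fits without PYL5 CA replicate 1, 2 or 3 called DTX50. CYP707A1, an ABA 8′-hydroxylase that starts ABA breakdown, had 204, 133 and 168 normalised reads in PYL5 CA and 104, 95.3 and 128 in aba2-1 mock. CYP707A3, of the same family, had 830.3 and 819 in replicates 1 and 3 but 453 in replicate 2, inside the aba2-1 mock range of 441 to 491.

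Further genes were named after their values were seen, so they stand for themselves and for no group. KCS2, a fatty acid elongase of suberin and wax synthesis, had 622, 394 and 855 normalised reads in PYL5 CA and 225, 256 and 324 in aba2-1 mock. The groups did not overlap, and replicate 2 lay nearest to aba2-1 mock. The log2 difference was 1.16 (SE 0.27), with an adjusted p of 0.53 (limma), 0.0382 with all 28 libraries and 0.0405 without replicate 2. MYB96 and MYB94, activators of wax synthesis, followed that order. MYB96 had 1097, 761 and 1381 normalised reads in PYL5 CA against 625, 599.8 and 686, and MYB94 had 499, 322 and 623 against 291, 275 and 315. MYB9, a regulator of suberin, had 88.4, 37.0 and 111 normalised reads in PYL5 CA and 31.1, 32.6 and 36.3 in aba2-1 mock, so replicate 2 was barely above the control range. With replicate 2 kept, the adjusted p (limma) was 0.53 for each of MYB9, MYB96 and MYB94. Without replicate 2 it was 0.0444 for MYB9, 0.0444 for MYB96 and 0.0493 for MYB94. KCS2 and these MYB genes were among the calls of the fit without replicate 2 and were named with its values known. The p-values of that fit are thus no separate support for them. The part that the length tilt of replicate 2 has in this order was not tested.

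Genes with lower values in PYL5 CA were also named after their values were seen, and they stand for no group. The peroxidase gene AT1G05250 had 309.6, 382 and 258 normalised reads in PYL5 CA and 658, 757 and 769 in aba2-1 mock, a log2 difference of -1.21 (SE 0.18, adjusted p = 0.185, limma). The groups did not overlap, and the adjusted p was 0.0175 with all 28 libraries and 0.00952 without replicate 2. Neither edgeR nor the fits without PYL5 CA replicate 1 or 3 called AT1G05250. The neighbouring peroxidase gene AT1G05240 had nearly the same value in every one of these libraries (302, 372 and 251 against 638, 737 and 748), so reads shared between the copies may make both uncertain. AT1G05700, annotated as a leucine-rich repeat receptor kinase, had 255, 209 and 262 normalised reads in PYL5 CA and 465, 485 and 526 in aba2-1 mock. RHS13, a root hair gene, had 142, 163 and 144 normalised reads against 308, 267 and 253, and XTH14, a cell wall transglycosylase, had 239, 227 and 192 against 348, 424 and 455. At AT1G05700 and RHS13 aba2-1 given 50 nM ABA was also below aba2-1 mock: AT1G05700 held 52.0, 30.6 and 66.2 there, and RHS13 held 107, 131 and 79.1. How many of the other lower loci share this was not tested. PELPK2, a cell wall protein gene, went the other way, with 151, 97.0 and 169 normalised reads in PYL5 CA and 52.9, 47.1 and 66.9 in aba2-1 mock.

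Limma called 0 loci of the tissue lists and the aquaporins, beside 0.0148% of all loci, and the medians of these lists differed between the PYL5 CA libraries. Among 22 nuclear photosynthesis genes the median log2 difference was -0.27, and by library it was -0.27, 0.35 and -0.81. RCA, the activase of Rubisco, had 81258, 97223 and 56403 normalised reads in PYL5 CA and 93440.3, 111102 and 110714 in aba2-1 mock. Its replicate 2 lay within the aba2-1 mock range, and replicates 1 and 3 lay below it. Among 19 aquaporins, the water channels of cell membranes, the median was -0.33 and by library -0.22, 0.12 and -0.68. The 17 genes of guard cells and the stomatal lineage had a median of 0.19. MYB60, a guard-cell transcription factor, had 342, 363 and 596 normalised reads in PYL5 CA and 241, 240.2 and 261 in aba2-1 mock, without overlap. SDD1, a protease that limits stomatal number, had 143, 155 and 146 against 181, 217 and 196. Neither passed the test (adjusted p = 0.53 and 0.536, limma). The 20 root genes had a median of -0.05. Without overlap, 3 of them were higher and 2 lower, beside 9% and 8.02% of all loci. CASP5, a protein of the Casparian strip and 1 of the 3 higher members, had 42.7, 26.0 and 44.7 normalised reads against 21.8, 20.5 and 15.9. No seed or embryo gene had enough reads to be tested, and their summed level was 1.75 to 27.0 normalised reads per PYL5 CA library and 2.27 to 5.19 per aba2-1 mock library.

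Stress lists beyond ABA varied between the PYL5 CA libraries, and 0 of their loci were called, beside 0.0148% of all loci. The 12 hypoxia genes had medians of -0.06, 0.51 and -0.25 in PYL5 CA replicates 1, 2 and 3. Within that list SUS4, a sucrose synthase, had 27.4, 17.0 and 15.8 normalised reads in PYL5 CA and 45.7, 49.5 and 46.5 in aba2-1 mock (log2 difference -1.23, adjusted p = 0.53, limma, or 0.02 with all 28 libraries). Neither edgeR nor the fits without PYL5 CA replicate 1, 2 or 3 called SUS4. HRA1, a repressor of the hypoxia response, had 543, 485 and 1695 normalised reads against 373, 198 and 307, with replicate 3 standing apart. The 8 heat shock genes had a median of 0.40, with 0.26, 0.65 and 0.26 by library, and the 17 jasmonate genes had 0.08, 0.50 and 0.04. WRKY18, a regulator of salicylate responses, had 422, 592 and 544 normalised reads in PYL5 CA and 306, 247 and 328 in aba2-1 mock. CHS, which opens flavonoid synthesis, had 312, 432 and 223 normalised reads against 609, 685 and 518, a log2 difference of -0.95 with an adjusted p of 0.53 (limma) and of 0.0451 without replicate 2. The 17 clock genes had a median of -0.01, that of all loci. The 12 cell cycle genes had one of -0.21.

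Organelle rows moved with the libraries as well. The 95 plastid-encoded rows had a median log2 difference of 0.70, at 0.41, 0.84 and 0.64 in the PYL5 CA libraries, while the aba2-1 mock libraries ranged from -0.57 to 0.48. The 38 mitochondrial rows had medians of 0.09, 1.07 and 0.12 in PYL5 CA. The 3 tested rows of nuclear ribosomal RNA varied in aba2-1 mock alone from -1.004 to 0.66. The part of these differences in the gene lists above was not tested.

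**Figure D4:**
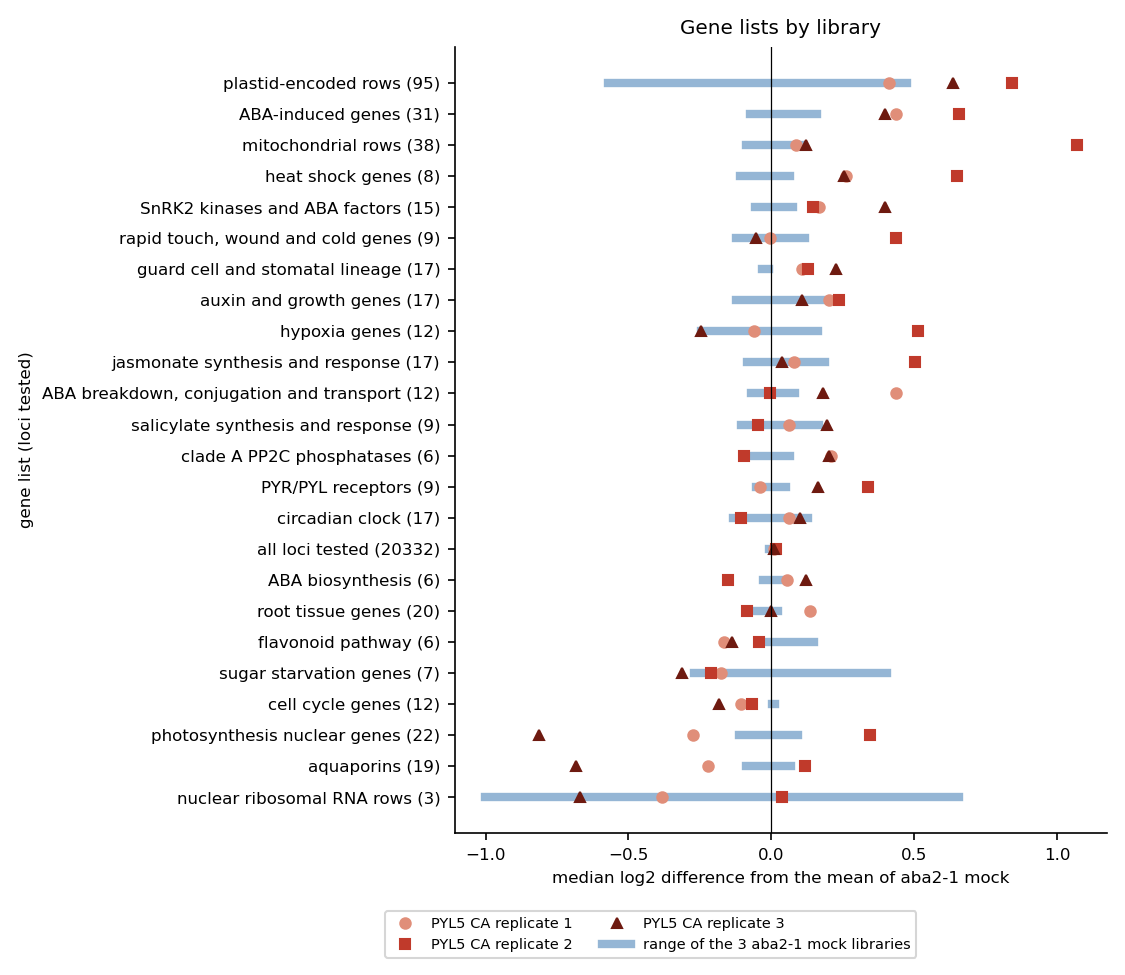
Median log2 difference from the aba2-1 mock mean for each gene list, with 1 red mark per PYL5 CA library. Blue bars span the 3 aba2-1 mock libraries, and the number of loci tested stands in parentheses. The ABA-induced genes lie at 0.40 to 0.66 in the PYL5 CA libraries, whereas photosynthesis genes run from -0.81 to 0.35.

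The number of calls between PYL5 CA and aba2-1 mock turned on the libraries and on the tool. Without PYL5 CA replicate 2, limma called 38 loci (0.188%). Without replicate 3 it called 1, and without replicate 1 it called 0, with 2077 at an unadjusted p under 0.05. With all 28 libraries in 1 fit it called 33 (0.157%), where 1 estimate of the spread serves all groups. Weighting each group by its own spread left 0, with 1918 at an unadjusted p under 0.05. DESeq2 on recovered reads called 55 (0.271%), limma after smoothing against transcript length called 5 (0.0248%), and edgeR called 0, with 1765 at an unadjusted p under 0.05. The fit of all 28 libraries, the fit without replicate 2 and DESeq2 shared 11 called loci: PYL5, KIN1, ERD10, KCS2, PELPK2, AT2G01422, AT4G15390, PIA1, AT1G05240, AT1G05250 and AT1G53640. The last, an uncharacterised protein, had 15.2, 14.0 and 14.9 normalised reads in PYL5 CA and 55.0, 48.3 and 45.4 in aba2-1 mock. These settings use the same libraries and are not independent of each other.

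**Figure D5:**
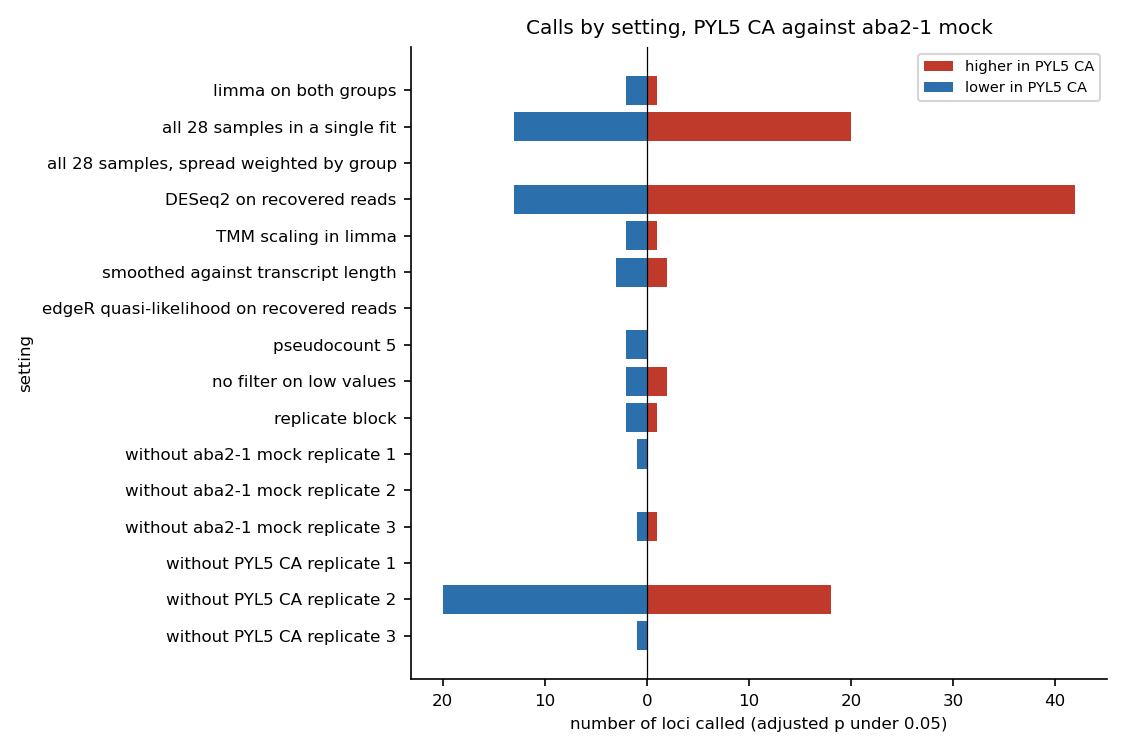
Number of loci called at an adjusted p under 0.05 in each setting, with loci higher in PYL5 CA to the right of 0 and lower ones to the left. Counts run from 0 to 55, and limma on both groups called 3.

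Against Col-0 mock, limma called 13 of 20281 loci (0.0641%), 7 higher (0.0345%) and 6 lower (0.0296%) in PYL5 CA. MRD1 had 766, 713 and 787 normalised reads in PYL5 CA and 11.6 and 21.7 in Col-0 mock (log2 difference 5.48, adjusted p = 0.00136, limma). HEI10, a gene of meiotic crossing over, had 419, 403 and 488 against 30.0 and 47.1 (log2 difference 3.50, adjusted p = 0.00434, limma). HEI10 spans 19963267 to 19966952 of chromosome 1 and overlaps MRD1 (19963047 to 19964712), which makes the reads of each uncertain. ABA2 lies on the same chromosome, at 19489794 to 19491650. The aba2-1 mock libraries held 859, 829 and 796 normalised reads of MRD1 and 303, 393 and 408 of HEI10, in the range of PYL5 CA and not of Col-0. AT3G55920 showed the reverse, at 0.762, 1.00 and 0 normalised reads in PYL5 CA, 1.04, 1.21 and 1.13 in aba2-1 mock, and 177 and 196 in Col-0 mock (adjusted p = 0.00434, limma). FAMT, a carboxyl methyltransferase, rose against Col-0 mock, with 121, 96.0 and 91.2 normalised reads beside 5.80 and 5.66, and aba2-1 mock held 124, 175 and 89.6. CYP71A19, a cytochrome P450, fell, and had 90.7, 70.0 and 96.5 in PYL5 CA, 364 and 394 in Col-0 mock, and 59.2, 72.4 and 70.3 in aba2-1 mock. At MRD1, HEI10, AT3G55920, FAMT and CYP71A19 PYL5 CA lay closer to aba2-1 mock than to Col-0 mock. These loci were picked for their difference from Col-0 mock or taken from an earlier report on these data. The fit against Col-0 mock did not use the aba2-1 mock values, but such a choice favours loci where Col-0 mock stands apart from other groups. The closeness of these loci to aba2-1 mock is thus no independent test. The labels do not give the background of PYL5 CA, and it was not tested. AT3G55920 and FAMT were named after their values were seen. Without replicate 2 the count was 167 (0.829%), and without replicate 3 it was 2 (0.00992%). It was 334 (1.59%) with all 28 libraries in 1 fit and 11 (0.0542%) with edgeR.

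Against PYL4 CA, limma called 0 of 20421 loci (0%), with 2591 at an unadjusted p under 0.05, and edgeR called 5 (0.0245%). The loci with the smallest p all had an adjusted p of 0.0512. Among them were PDC1, a pyruvate decarboxylase of fermentation, with 233, 226 and 213 normalised reads in PYL5 CA and 521, 495 and 599 in PYL4 CA (log2 difference -1.26), and IGMT5, an indole glucosinolate methyltransferase, with 712, 634 and 697 against 1720.3, 1617 and 1509.5 (log2 difference -1.24). Neither gene overlapped between the lines. Without replicate 2 limma called 368 (1.81%), without replicate 3 it called 3 (0.0147%), and with all 28 libraries in 1 fit it called 282 (1.34%).

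Against PYL6 CA, limma called 4 of 20271 loci (0.0197%), 2 in each direction (0.00987%) and all at an adjusted p of 0.0215. PYL6 fell, with 708, 724 and 815 normalised reads in PYL5 CA and 2755, 2293 and 3124 in PYL6 CA, as the names of the lines go (log2 difference -1.85). GSTU11, a glutathione transferase, rose, with 150.2, 231 and 147 normalised reads against 32.5, 40.8 and 32.2 (log2 difference 2.27), and aba2-1 mock held 151, 154 and 63.5. AT1G27565 was at 0 in PYL5 CA and at 14.2, 35.5 and 27.7 in PYL6 CA, and it was at 0 in the aba2-1 mock and Col-0 mock libraries too. AT2G01422, described above, was the other locus that rose. ERD10 was 6486, 7082 and 7639.5 in PYL5 CA and 3536, 4074 and 4477 in PYL6 CA, without overlap, but its difference did not pass (log2 difference 0.81, adjusted p = 0.353, limma). With PYL5 CA replicate 1 or 3, or any 1 of the PYL6 CA libraries, left out, limma called 0 loci. It called 13 (0.0645%) without PYL5 CA replicate 2 and 15 (0.0714%) with all 28 libraries in 1 fit.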

How the data were processed

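Whole-seedling RNA went into KAPA stranded libraries and was read on a NextSeq 500, as the labels' protocols state. Trimmomatic 0.38, Salmon 1.3.0, edgeR 3.28.0 and the build TAIR10 are named in the submitters' processing notes without their roles. The deposited table gives signal by gene: read counts divided by 1 size factor per sample, since 100% of values were whole multiples of a column's smallest step within 0.01 read. The table holds 23686 rows, of which 5 have no locus and stayed out of tests. Those whole reads were recovered for edgeR 4.0.16 and DESeq2 1.42.0.

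The main test was limma 3.58.1 (R 4.3.3) on log2(value + 1) of both groups only, with trend and robust shrinkage. Loci needed a value of at least 10 in at least 2 samples, and calls an adjusted p (Benjamini-Hochberg) under 0.05. The design was tested on simulated data with independent noise and the same spread for every locus of a group. The simulation had no length tilt and no outlying library, so it does not cover those traits of PYL5 CA. Gene lists (22, with 324 genes, 274 tested, 43 below the filter and 7 not found) came from general knowledge. The members, lists and tests were chosen with earlier results of these data known. Named genes were the receptor rows, ABA2, MRD1, HEI10, the 10 largest non-overlapping rises and falls called at 5 CPM or more, up to 3 list members with the smallest p, and the 5 smallest p in other comparisons. The same conditions were set for the 5 largest rises and falls without PYL5 CA replicate 3. COR47 and the list members outside these ranks were named after their values were seen. Positions and sequences are from RefSeq TAIR10.1, in which 23457 loci matched. Same-numbered replicates are not stated to be paired, so the main fit had no block.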

Additional observations from a re-analysis of the deposited data

Results flagged for a closer look

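Against PYL6 CA, 4 loci differed by limma with Benjamini-Hochberg adjustment, each at an adjusted p of 0.0215. On the log2 scale the difference PYL5 CA minus PYL6 CA was 2.27 for GSTU11, -4.65 for AT1G27565, -1.85 for PYL6 and 7.15 for AT2G01422. The values of AT1G27565 and AT2G01422 rest on a group at or near 0 and depend on the added 1.

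Of the rows without a locus identifier named for something other than PYL5, 3 had a higher mean in PYL5 CA than in aba2-1 mock, and PYL6-CA had a lower one, at 242 against 444. MCCA-NOS averaged 13712 normalised reads in PYL5 CA and 0 in aba2-1 mock. PYR1-CA averaged 1729 against 1009, with an exact two-sided permutation p of 0.2. PYL4-CA averaged 114 against 9.08, with an exact two-sided permutation p of 0.3, and replicate 3 alone held 305. What these rows stand for is not given in the sources used here.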

How the results depend on the processing

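The 3 calls between PYL5 CA and aba2-1 mock became 33 with all 28 samples in 1 fit, 0 with the spread weighted by group, 55 with DESeq2, 0 with edgeR and 5 after smoothing against transcript length, an alternative chosen after seeing the data. Leaving out 1 library gave 0 to 38. TMM scaling gave 3, a pseudocount of 5 gave 2 and no filter gave 4. The 13 calls against Col-0 mock became 334 with all 28 samples, and 0 to 167 without 1 library. Against PYL4 CA the 0 calls became 282 with all 28 samples, 5 with edgeR, 5 with a pseudocount of 5 and 11 without a filter, and 0 to 368 without 1 library. Against PYL6 CA the 4 calls became 15 with all 28 samples, 2 with edgeR, 2 with a pseudocount of 5, and 0 to 13 without 1 library. Fits without a library have fewer samples. The other causes were not tested.

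With the replicate number as a block, PYL5 CA against aba2-1 mock kept 3 calls (1 higher, 2 lower). The block gave 234 calls against Col-0 mock, 30 against PYL4 CA and 7 against PYL6 CA. The pairing check gave correlations of 0.0033, -0.00058 and 0.027 for numbers 1, 2 and 3. Only replicate 3 correlated best with its own number. The labels do not state a pairing. The check cannot settle whether same-numbered samples were handled together, since the length tilt of replicate 2 enters it.

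ABA2 changed sign without PYL5 CA replicate 2, to -0.021, with a range of -0.021 to 0.11 over the fits without 1 library. RRNA18S_3 changed sign without aba2-1 mock replicate 2 or replicate 3, with a range of -0.98 to 0.11. Neither was called. Depth limits genes such as HAI1 and RD29B, which had under 50 reads.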
